A study of Homo sapiens with 74 samples.

Results

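The MYC and MAX network is a family of transcription factors that bind DNA in pairs, and 9 of its genes were followed across 2 human erythroleukaemia cell lines. The genes were MYC, MAX, MXD1, MXD3, MXD4, MXI1, MNT, MGA and MLX. They were chosen by name, and all 9 were found among the 28131 genes of each count table. All 9 passed the filter on low counts in every fit. The main pattern was that MYC and MAX messenger RNA fell in each of the 3 depletion experiments. The MAX decrease was small, and its call was lost under many alternatives. Within each experiment, some genes that compete with MYC for MAX were higher and others lower. MXD4 and MXI1 were called in opposite directions in different experiments. MXD1 and MGA had negative and MXD3 positive changes in all 3, not all of them called.

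RNA sequencing was done on K562 and HEL cells, which are established lines. K562 libraries were labelled wild type (control), DOT1L-/- (DOT1L knockout, KO) or ENL-/- (ENL KO), and HEL libraries were labelled control or DOT1L knockdown (KD). DOT1L is the enzyme that methylates histone H3 in its globular core, and ENL, whose gene symbol is MLLT1, is a reader of acylated histones that works with DOT1L and with elongation factors. No clone, guide, hairpin or time after depletion is given in the sources used here for these libraries. K562 gave 2 distinct libraries for the control and 3 for each knockout, and HEL gave 2 for each of its groups. Columns 2 and 3 of the K562 control were identical for all genes, so they entered as 1 library. Nothing in the labels says that replicates came from separate cultures, so a p-value measures the spread between these libraries, which may be technical. In HEL that spread was small: chi-square divided by its degrees of freedom, over genes, was 1.48 between the control replicates and 1.33 between the KD replicates, against 4.24 to 10.2 between the distinct replicates of K562. HEL was grown in RPMI and K562 in DMEM. Line therefore goes together with medium, with knockdown against knockout, and with read counts in HEL against fragment counts in K562, and these cannot be told apart. A sequencing lane is named in the labels of the K562 control and DOT1L KO and in none of the ENL KO. Whether the ENL KO was a separate batch is therefore not known. A batch, if there was 1, and the loss of ENL cannot be told apart.

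K562 libraries had 15404944 to 29236703 counts and HEL libraries 12151495 to 12811688. The targeted transcripts were lower in the depleted libraries but still present. DOT1L had 270 and 256 CPM (a count scaled to the size of its library) in the K562 controls and 176 to 186 CPM in the DOT1L KO, and 97.5 and 87.4 CPM in the HEL controls and 29.1 and 30.0 CPM in the KD. MLLT1 had 214 and 219 CPM in the K562 controls and 153 to 157 CPM in the ENL KO. Gene counts sum over all exons and the deleted stretch is not given in the sources used here, so these levels do not show what the remaining RNA encodes. Of 12 erythroid markers, 12 reached 1 TPM (a level per exonic length) in all 5 groups. Their summed level was 14884 to 16233 TPM in the K562 controls, 23038 to 24392 TPM in the DOT1L KO and 20141 to 20428 TPM in the ENL KO. In HEL it was 20090 to 20309 TPM in the control and 27596 to 30205 TPM in the KD. HBG2 alone had means of 7535 TPM (K562 control), 11445 TPM (DOT1L KO) and 8689 TPM (ENL KO). By gene, 11 of the 12 were called higher and 1 lower after loss of DOT1L. After loss of ENL 7 were higher and 2 lower, and in HEL 10 were higher and 0 lower. TFRC had 2234 and 2395 CPM in the K562 controls. Its DOT1L KO libraries had 1856 to 2022 CPM and its ENL KO libraries 1860 to 2035 CPM. NFE2 had 333 and 336 CPM in those controls against 278 to 281 CPM without ENL. Of 10 megakaryocytic markers, 7 reached 1 TPM in HEL, where their sum was 2107 to 2208 TPM in the control and 1576 to 1585 TPM in the KD. Of the 7 tested in HEL, 6 were called lower and 1 higher in the KD. The higher marker was GP1BA, with 42.4 and 47.6 CPM in the controls and 67.8 and 61.7 CPM in the KD. In K562 only 3 markers reached 1 TPM, with sums of 7.26 to 9.01 TPM in the controls, 27.1 to 28.8 TPM in the DOT1L KO and 19.1 to 23.2 TPM in the ENL KO. GP1BA, GP1BB and SELP were at 0 in every K562 library. The sum of 10 monocyte and granulocyte markers was 96.2 to 98.4 TPM in the K562 controls and 528 to 567 TPM in the DOT1L KO, and LYZ alone went from a mean of 57.4 to 530 TPM, CD68 went from a mean of 36.7 to 13.1 TPM, and MPO was under 1 TPM in all groups. Of the 4 of these markers tested there, 2 rose and 1 fell. Of 10 lymphoid and 10 epithelial and stromal markers, 2 to 4 reached 1 TPM per group, mainly CD3D and EPCAM in K562 and PECAM1 in HEL. The part of these marker changes in the results below was not tested.

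Proteins of the network act in pairs. MYC pairs with MAX at the DNA motif CACGTG, the E-box, and switches on genes of growth and ribosome production, whereas the MXD proteins, MXI1 and MNT pair with MAX at the same motif and bring in the SIN3 corepressor. MGA pairs with MAX inside a Polycomb complex, and MLX pairs with MXD1, MXD4 and MNT or with the glucose-responsive factors MondoA (gene MLXIP) and ChREBP (gene MLXIPL). In blood formation MYC is known for driving the division of precursors and for falling as red cells mature, and MXD genes are known for rising in maturing cells. All values here are of RNA, and fewer cells of a type and less RNA per cell cannot be told apart in bulk samples.

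The E-box itself lies in the listed promoters of some members. RefSeq promoter windows (GRCh38.p14, 250 bases before to 50 after a start) were searched for CACGTG, which reads the same on both strands. The motif was in 3 of the 8 members searched, MXD4, MNT and MLX, against 8.77% of 27305 genes with a listed promoter and 13.0% of the 8432 of them with a mean of 20 counts in both lines. MYC was not searched, and the windows of MAX, MXD1, MXD3, MXI1 and MGA held no match. The 250 bases before the starts of MXD4 (chr4:2262110-2262359, minus strand) and MNT (chr17:2401061-2401310, minus strand) are shown because both genes rose in the K562 DOT1L KO, and 30 bases around the motif of MLX (chr17:42567038-42567067, plus strand) because MLX rose in the ENL KO. Capitals mark the motif, whose first base lies 238 bases before the start in MXD4, 193 in MNT and 50 in MLX.
MXD4: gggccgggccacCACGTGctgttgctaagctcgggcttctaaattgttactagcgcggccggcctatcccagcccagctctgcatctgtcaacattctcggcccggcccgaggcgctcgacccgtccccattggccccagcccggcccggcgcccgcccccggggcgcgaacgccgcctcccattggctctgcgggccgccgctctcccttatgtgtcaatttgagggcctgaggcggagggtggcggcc
MNT: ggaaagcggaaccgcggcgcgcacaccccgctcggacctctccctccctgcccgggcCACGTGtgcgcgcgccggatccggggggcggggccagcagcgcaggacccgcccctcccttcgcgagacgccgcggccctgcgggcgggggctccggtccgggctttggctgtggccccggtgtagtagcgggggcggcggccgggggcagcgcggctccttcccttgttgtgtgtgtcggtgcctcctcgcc
MLX: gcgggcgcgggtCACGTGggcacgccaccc
A match is a description of these letters and not evidence of binding. MXD4 was called lower in the ENL KO, and MXD3, whose window held no match, was called higher in the DOT1L KO.

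Levels per exonic length put MYC first in every group. MYC had 300.4 and 323 TPM in the K562 controls, 221 to 230 TPM in the DOT1L KO, 186 to 198 TPM in the ENL KO, 246 and 238 TPM in the HEL controls, and 207 and 202 TPM in the KD. Between 94.5% and 97.2% of the genes detected in a group had a lower mean level than MYC. MLX and MAX came next, MLX ahead of MAX in K562 (95.1 against 61.6 TPM in the control, means of 2 libraries) and MAX ahead of MLX in HEL (100.1 against 76.6 TPM). The 6 competitors of MYC lay far lower, between 6.51 TPM (MXD3) and 27.0 TPM (MGA) in the K562 control and between 3.00 TPM (MXD4) and 36.4 TPM (MGA) in the HEL control. Neighbours in this order did not always separate. In the K562 control the libraries of MGA, MXD1 and MXD4 overlapped (27.0, 26.0 and 25.8 TPM), and so did those of MGA, MNT and MXD1 in the DOT1L KO (25.9, 25.7 and 24.4 TPM). In the ENL KO, MXD1, MGA, MXI1 and MXD4 overlapped in order (21.4, 19.5, 19.3 and 18.8 TPM). In HEL every library of a member lay above every library of the next member, in both groups.

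**Figure D1:**
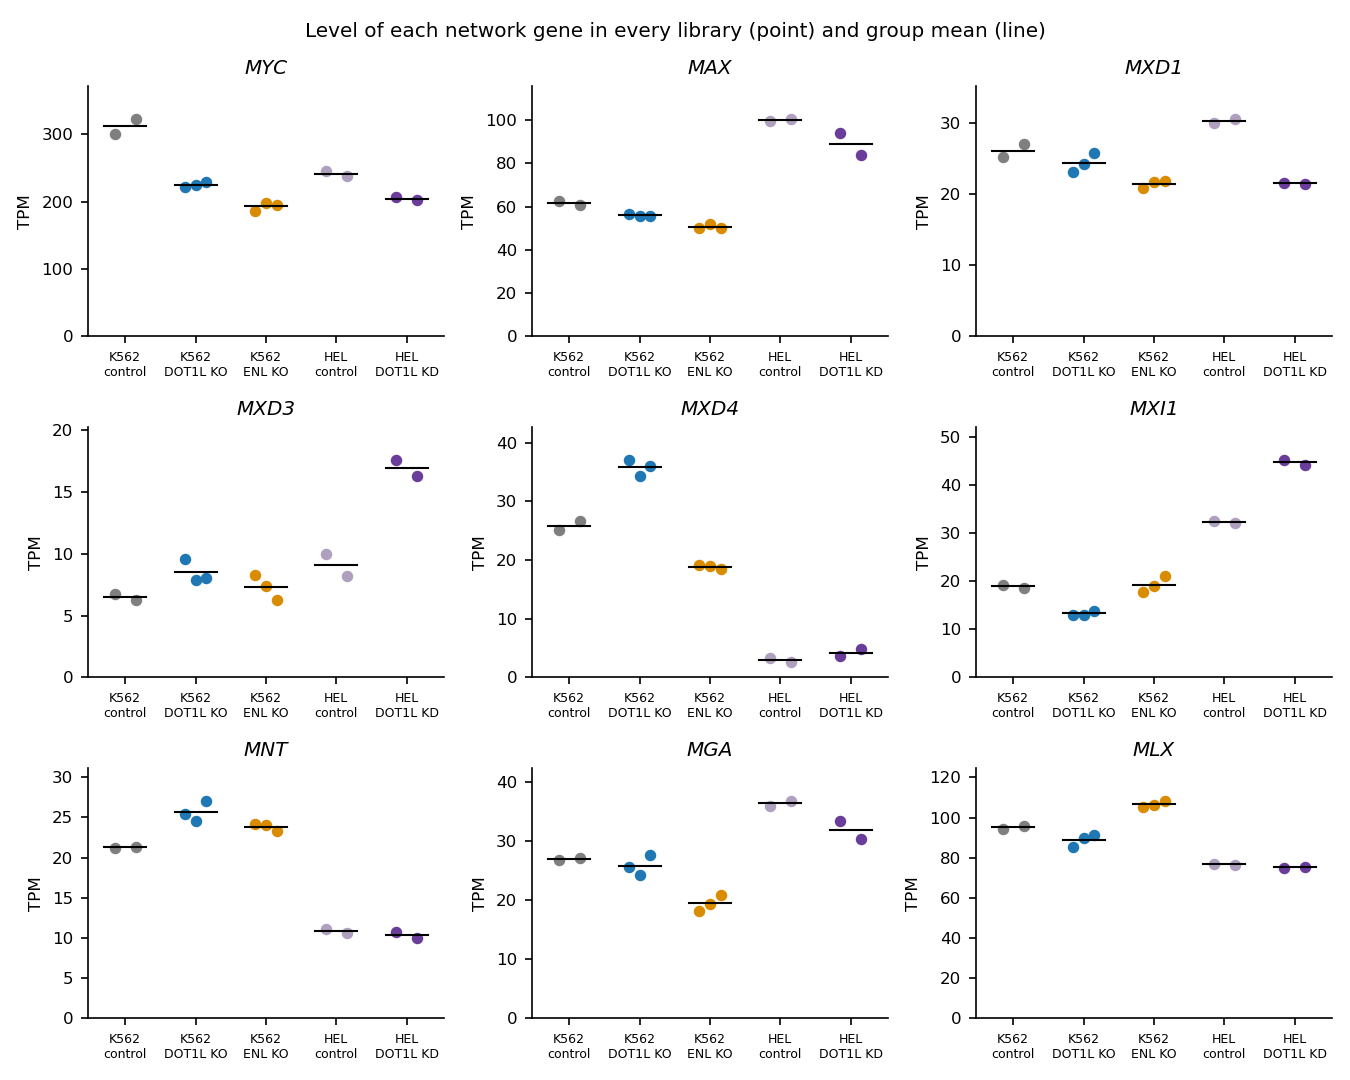
Level of each of the 9 genes (TPM, linear axes from 0) in every distinct library (points) with the mean of each group (lines), for the 3 K562 and 2 HEL groups. MYC was highest in the K562 control (300.4 and 323 TPM), MXD4 was near the bottom of its axis in HEL (2.62 to 4.78 TPM), and MXI1 was highest in the HEL DOT1L KD (45.2 and 44.1 TPM).

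MYC (chromosome 8, 127735434 to 127742951, GRCh38, plus strand), the growth-promoting member, fell in all 3 experiments. It had 531 and 569.8 CPM in the K562 controls, 393, 395 and 391 CPM in the DOT1L KO and 342, 359 and 341 CPM in the ENL KO. All 6 knockout libraries lay below both controls and the ENL KO libraries lay below the DOT1L KO libraries. The log2 fold change was -0.49 (standard error 0.051, edgeR adjusted p 3.48e-06) in the DOT1L KO, a level lower by 28.6%, and -0.66 (standard error 0.051, edgeR adjusted p 2.67e-07) in the ENL KO, where it fell by 36.9%. Both comparisons use the same 2 controls. In HEL, MYC had 441 and 430.3 CPM in the controls and 382 and 374 CPM in the KD, again without overlap, with a log2 fold change of -0.20 (standard error 0.031, edgeR adjusted p 1.64e-07), and its level fell by 13.1%. These decreases kept their side of the threshold under every alternative except, in the DOT1L KO and in HEL, a minimum change of 0.5 on the log2 scale. PVT1, the noncoding RNA gene beside MYC, did not follow it in HEL. PVT1 had 58.8 and 65.2 CPM in the HEL controls and 78.7 and 79.2 CPM in the KD, and rose by 0.35 on the log2 scale (standard error 0.055, edgeR adjusted p 3.60e-07). In K562 it had 32.1 and 37.8 CPM in the controls, 26.5, 31.1 and 27.8 CPM in the DOT1L KO and 28.8, 29.8 and 28.6 CPM in the ENL KO, with log2 fold changes of -0.29 (edgeR adjusted p 0.0168) and -0.26 (edgeR adjusted p 0.0366). Without control 2 these PVT1 changes were -0.17 and -0.14 and were no longer called. Leaving out DOT1L KO 1 or 3 (-0.24 and -0.27) or any of the 3 ENL KO libraries (-0.26, -0.29 and -0.25) ended the call as well.

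MAX (chromosome 14, 65006101 to 65102695, minus strand), the common partner, was lower in the depleted groups by a small amount. Its libraries had 74.3 and 72.0 CPM in the K562 controls, 67.7, 65.6 and 63.4 CPM in the DOT1L KO, and 61.9, 63.2 and 59.1 CPM in the ENL KO. No knockout library reached a control. The log2 fold change was -0.16 (standard error 0.061, edgeR adjusted p 0.0448) in the DOT1L KO and -0.25 (standard error 0.061, edgeR adjusted p 0.00517) in the ENL KO. In HEL, MAX had 120 and 123 CPM in the controls and 117 and 105 CPM in the KD, with a log2 fold change of -0.13 (standard error 0.047, edgeR adjusted p 0.0144). Direction held in all alternatives, but the call was lost in 10 of 14 for the DOT1L KO, 2 of 14 for the ENL KO and 7 of 11 for HEL. Among them, the DOT1L KO value was -0.14 without control 1, -0.18 without control 2, -0.15 without KO 2 and -0.13 without KO 3. The ENL KO value was -0.23 without control 1, and the HEL value -0.12 without control 2 and -0.06 without KD 2. Scaling by upper quartiles or by library size also ended the call in the DOT1L KO (-0.14 and -0.11) and in HEL (-0.06 and -0.10), as did DESeq2 (-0.15 and -0.14).

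In total, 6 of 9 members passed the threshold of an adjusted p under 0.05 in the K562 DOT1L KO, 3 higher and 3 lower, where 51.1% of the 14301 genes tested did, 26.9% higher and 24.2% lower. The count was 7 of 9 in the ENL KO, 2 higher and 5 lower, against 41.0% of genes (18.8% and 22.2%), and 7 of 9 in the HEL KD, 3 higher and 4 lower, against 55.0% of 12635 genes (27.0% and 28.0%). Upper-quartile scaling moved the higher share of all HEL calls from 49.1% to 61.4%. The median log2 fold change of the members was -0.11, -0.25 and -0.04 in these comparisons, and that of all genes tested was 0.01, 0.00 and 0.01. Without K562 control 1 or control 2, 3 members were called in the DOT1L KO. The ENL KO then had 4, and HEL had 4 without KD 2. Calls over all genes fell as well, to 5691 of 14660 and 5664 of 14670 tested in the DOT1L KO. In the ENL KO they fell to 4094 of 14660 and 4323 of 14670, and in HEL without KD 2 to 5884 of 12866. MYC and MAX were called lower in all 3 experiments, and MXD4 was called in all 3 with a direction that differed. The share of all genes called in all 3 was not computed, and both knockouts share their controls.

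**Figure D2:**
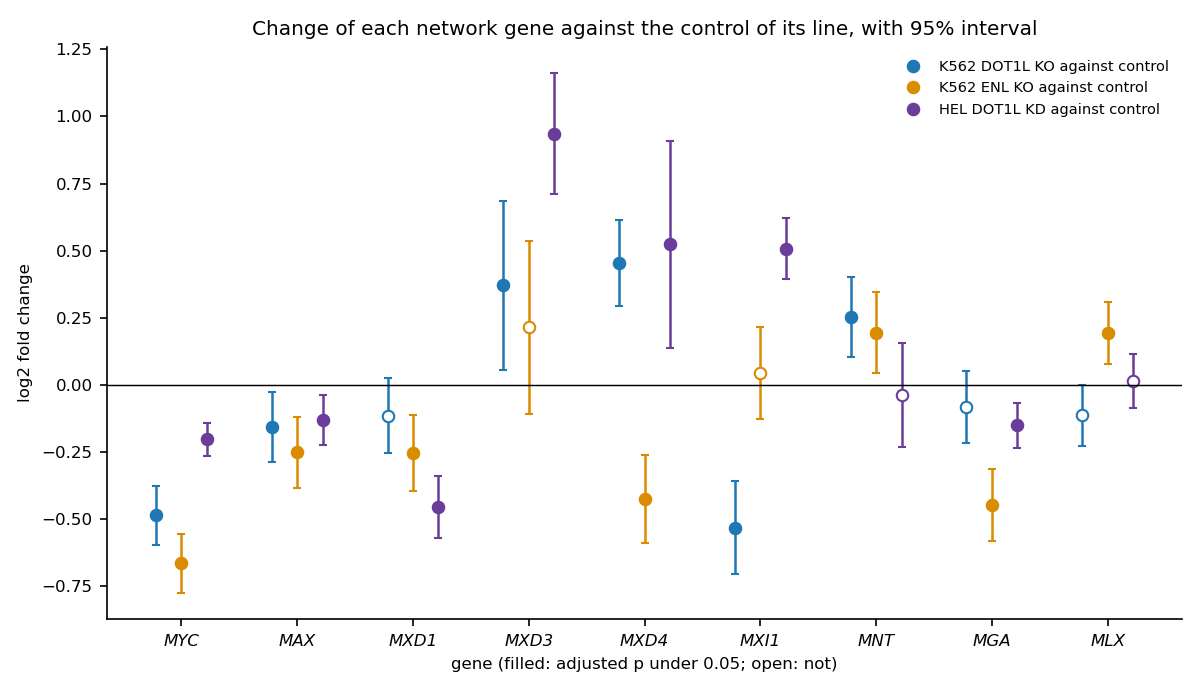
Log2 fold change of each member against the control of its line (vertical axis) with its 95% interval, for the K562 DOT1L KO, the K562 ENL KO and the HEL DOT1L KD. Filled points passed an adjusted p of 0.05 and open points did not. MYC and MAX lie below 0 in all 3 comparisons, MXD4 lies at 0.45, -0.43 and 0.52, and MXI1 at -0.53, 0.04 and 0.51.

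MXD4 (chromosome 4, 2247433 to 2262012, minus strand), a repressor that takes the place of MYC on MAX, moved in opposite directions in the 2 knockouts. It had 37.0 and 39.1 CPM in the K562 controls, 55.0, 50.3 and 51.0 CPM in the DOT1L KO and 29.3, 28.7 and 26.9 CPM in the ENL KO. The 3 groups did not overlap. MXD4 rose by 0.45 on the log2 scale in the DOT1L KO (standard error 0.074, edgeR adjusted p 0.000188) and fell by 0.43 in the ENL KO (standard error 0.076, edgeR adjusted p 0.000541). In HEL it was scarce, with 5.03 and 3.97 CPM in the controls and 5.57 and 7.40 CPM in the KD, and its log2 fold change was 0.52 (standard error 0.19, edgeR adjusted p 0.0180). The HEL call was lost without control 2 (0.36), without KD 2 (0.30), without a filter on low counts (0.52) and with DESeq2 (0.51). MIR4800 shares 80 exonic bases with MXD4 on the same strand.

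MXI1 (chromosome 10, 110207605 to 110287365, plus strand), a further repressor of the MXD group, fell in K562 and rose in HEL after DOT1L depletion. Its K562 libraries had 28.9 and 27.9 CPM in the controls and 19.6, 19.4 and 20.02 CPM in the DOT1L KO, a log2 fold change of -0.53 (standard error 0.080, edgeR adjusted p 9.44e-05). The ENL KO libraries, with 27.7, 29.2 and 31.2 CPM, overlapped the controls, and the difference of 0.04 had a 95% interval of -0.13 to 0.22 (edgeR adjusted p 0.692). In HEL the gene had 49.2 and 49.4 CPM in the controls and 70.8 and 69.4 CPM in the KD. That was an increase of 0.51 (standard error 0.057, edgeR adjusted p 7.90e-11). The calls for MXI1 in the DOT1L KO and in HEL were kept under all alternatives.

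MXD3 (chromosome 5, 177305500 to 177312291, minus strand), the MXD gene known for expression in dividing cells, was the member with the largest change against a control. In HEL it had 12.5 and 10.4 CPM in the controls and 22.7 and 21.1 CPM in the KD, a log2 fold change of 0.94 (standard error 0.11, edgeR adjusted p 4.56e-10) that was kept under all alternatives. In K562 it had 8.37 and 7.71 CPM in the controls, 11.9, 9.70 and 9.61 CPM in the DOT1L KO and 10.7, 9.39 and 7.69 CPM in the ENL KO. The DOT1L KO libraries lay above the controls and ENL KO 3 did not. The log2 fold change of 0.37 in the DOT1L KO (standard error 0.15, edgeR adjusted p 0.0478) was not called without control 1 (0.43), without control 2 (0.31), without KO 1 (0.27) or with DESeq2 (0.38). In the ENL KO it was 0.21 with a 95% interval of -0.11 to 0.54 (edgeR adjusted p 0.280). PRELID1 on the opposite strand shares 731 exonic bases, 23.1% of the exonic length of MXD3, and whether the counting used strand is not given in the sources used here. PRELID1 itself had log2 fold changes of 0.29 in HEL (edgeR adjusted p 1.26e-05), -0.10 in the DOT1L KO (edgeR adjusted p 0.144) and 0.09 in the ENL KO (edgeR adjusted p 0.228), and its part in the MXD3 values was not tested.

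MXD1 (chromosome 2, 69915041 to 69942944, plus strand), the MXD gene best known from maturing blood cells, was not called higher in any experiment. It had 55.2 and 59.1 CPM in the K562 controls, 50.9, 52.9 and 54.5 CPM in the DOT1L KO, and 47.5, 48.6 and 47.5 CPM in the ENL KO. The log2 fold change was -0.11 in the DOT1L KO, with a 95% interval of -0.25 to 0.03 (edgeR adjusted p 0.159), and -0.25 in the ENL KO (standard error 0.066, edgeR adjusted p 0.00702). Without control 2 the ENL KO value was -0.20 and no longer called. HEL showed the larger decrease, from 66.5 and 68.8 CPM in the controls to 49.5 and 49.2 CPM in the KD, a log2 fold change of -0.46 (standard error 0.058, edgeR adjusted p 2.11e-09).

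MNT (chromosome 17, 2384060 to 2400964, minus strand), the most broadly expressed repressor that pairs with MAX, rose in the DOT1L KO of K562. It had 40.2 and 40.2 CPM in the K562 controls, 48.3, 46.2 and 49.4 CPM in the DOT1L KO and 47.5, 46.7 and 43.6 CPM in the ENL KO. All 6 knockout libraries lay above both controls. The log2 fold changes were 0.25 (standard error 0.069, edgeR adjusted p 0.00777) and 0.19 (standard error 0.070, edgeR adjusted p 0.0403). Without either control the DOT1L KO value was 0.25 and no longer called. The ENL KO call was lost in 10 of 14 alternatives, among them without either control (0.20 each), without ENL KO 1 (0.17), without ENL KO 2 (0.18), with upper-quartile scaling (0.17) and with DESeq2 (0.20). In HEL the libraries overlapped, with 21.3 and 20.7 CPM in the controls and 21.2 and 19.8 CPM in the KD. The difference was -0.04 with a 95% interval of -0.23 to 0.15 (edgeR adjusted p 0.757).

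MGA (chromosome 15, 41660412 to 41769943, plus strand), which ties MAX to a Polycomb complex, fell most in the ENL KO. It had 126 and 128 CPM in the K562 controls and 88.9, 93.1 and 97.6 CPM in the ENL KO, a log2 fold change of -0.45 (standard error 0.062, edgeR adjusted p 6.41e-05). The DOT1L KO libraries had 121, 113 and 125 CPM, and the difference of -0.08 had a 95% interval of -0.22 to 0.05 (edgeR adjusted p 0.284). HEL had 171 and 178 CPM in the controls and 164 and 150.4 CPM in the KD, a log2 fold change of -0.15 (standard error 0.041, edgeR adjusted p 0.00152). The HEL call was lost without KD 2 (-0.09) and with upper-quartile scaling (-0.08).

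MLX (chromosome 17, 42567060 to 42573203, plus strand), the partner of MondoA and ChREBP, differed from MYC in direction in the ENL KO. It had 94.4 and 95.9 CPM in the K562 controls, 109.8, 109.0 and 108 CPM in the ENL KO and 86.0, 89.4 and 88.2 CPM in the DOT1L KO. The groups did not overlap. The rise of 0.19 in the ENL KO (standard error 0.054, edgeR adjusted p 0.0107) was not called without control 1 (0.18) or control 2 (0.21). The DOT1L KO value was -0.11 with a 95% interval of -0.23 to 0.0011 (edgeR adjusted p 0.0916). In HEL, with 77.7 and 78.7 CPM in the controls and 78.5 and 79.5 CPM in the KD, the difference was 0.01 with a 95% interval of -0.09 to 0.12 (edgeR adjusted p 0.829). PSMC3IP on the opposite strand shares 775 exonic bases, 30.2% of the exonic length of MLX, and was not called in any comparison of a depletion with its control.

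The 2 knockouts of K562 were also compared with each other, without the controls. Here 5 of 9 members were called, 3 higher and 2 lower in the DOT1L KO, where 60.2% of all genes tested were, 31.8% higher and 28.3% lower. The largest difference was in MXD4, higher in the DOT1L KO by 0.88 (standard error 0.068, edgeR adjusted p 8.89e-08). MGA was higher in the DOT1L KO by 0.37 (standard error 0.056, edgeR adjusted p 7.45e-05) and MYC by 0.18 (standard error 0.047, edgeR adjusted p 0.00461). MXI1, with a difference of -0.58 (standard error 0.073, edgeR adjusted p 1.28e-05), and MLX, with -0.31 (standard error 0.048, edgeR adjusted p 8.44e-05), were lower in the DOT1L KO. The other 4 members were not called. Their differences and 95% intervals were 0.09 (-0.03 to 0.21) for MAX, 0.14 (0.01 to 0.27) for MXD1, 0.16 (-0.12 to 0.43) for MXD3 and 0.06 (-0.07 to 0.19) for MNT. MXD1 passed in 6 alternatives, among them without DOT1L KO 1 (0.17) and with library-size scaling (0.19), and MAX in 2, with library-size scaling and with a minimum mean of 5 CPM (0.15 each).

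The balance between MYC and its competitors was described as the share of MYC in a summed TPM of 7 members. These were MYC, MXD1, MXD3, MXD4, MXI1, MNT and MGA, whose proteins pair with MAX. The paralogs MYCL and MYCN are not members and were left out of the sum. The share of MYC is given per library. It was 70.7% and 71.8% in the K562 controls, 62.3%, 63.7% and 62.4% in the DOT1L KO, then 63.2%, 64.2% and 63.6% in the ENL KO, 66.7% and 66.2% in the HEL controls, and 61.1% and 61.4% in the KD. No depleted library reached a control of its line. The summed level of the 6 competitors was 126 ± 1.89 TPM (SD, n = 2) in the K562 control, 133 ± 5.09 TPM (SD, n = 3) in the DOT1L KO and 110.1 ± 1.76 TPM (SD, n = 3) in the ENL KO. The 7 genes together had 438 TPM in the control, against 359 TPM after loss of DOT1L and 303 TPM after loss of ENL. MXD4 took 5.90% of that sum in the K562 control, 9.97% after loss of DOT1L and 6.22% after loss of ENL, whereas MXI1 took 4.34%, 3.70% and 6.35%. In HEL the competitors summed to 122 ± 1.29 TPM in the control and 130 ± 3.77 TPM in the KD (SD, n = 2 each). MXI1 went there from 8.87% to 13.4% of the sum and MXD3 from 2.50% to 5.08%, while MXD1 went from 8.32% to 6.43%. MAX itself, at 61.6 TPM in the K562 control and 100.1 TPM in the HEL control, lay below the sum of these 7 genes in every library. These shares are of RNA, and no test was run on them.

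**Figure D3:**
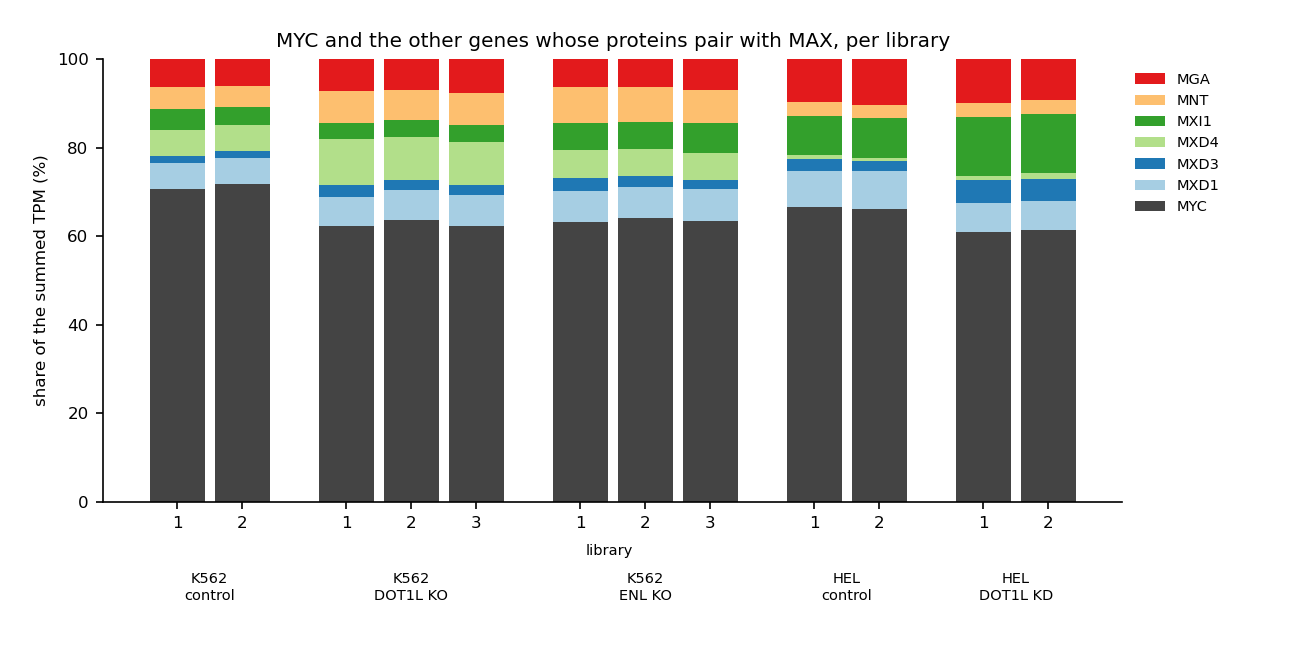
Share of each gene in the summed TPM of MYC and the 6 other members whose proteins pair with MAX. Values are percent, stacked to 100, with 1 bar per distinct library. MYC takes 70.7% and 71.8% in the K562 controls and 61.1% to 64.2% in the depleted libraries of both lines, and MXD4 takes at most 1.45% in a HEL library.

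HEL and K562 controls differed in all 9 members, 5 higher and 4 lower in HEL. Of the 15367 genes tested in the joint fit of the lines, 85.6% were called, 41.3% higher and 44.2% lower. That fit also keeps genes with enough counts in only a single line. MXD4 stood apart, with 5.03 and 3.97 CPM in HEL against 37.0 and 39.1 CPM in K562. Its log2 difference, HEL minus K562, was -3.01 (standard error 0.13, edgeR adjusted p 4.17e-15). MNT was also lower in HEL (-0.87, standard error 0.085, edgeR adjusted p 4.47e-09), as were MYC (-0.27, standard error 0.050, edgeR adjusted p 3.94e-05) and MLX (-0.21, standard error 0.058, edgeR adjusted p 0.00207). Higher in HEL were MXI1 (0.86, standard error 0.076), MAX (0.80, standard error 0.064), MXD3 (0.58, standard error 0.15), MGA (0.53, standard error 0.061) and MXD1 (0.31, standard error 0.067), with edgeR adjusted p-values of 6.65e-10, 1.49e-10, 0.000958, 6.05e-08 and 0.000193.

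Whether the response to DOT1L depletion differed between the lines was tested as an interaction, and 4 of 9 members passed, 3 with a positive and 1 with a negative difference, where 38.9% of genes did, 19.8% positive and 19.1% negative. MXI1 had the largest difference, HEL minus K562, of 1.06 on the log2 scale (standard error 0.10, edgeR adjusted p 3.42e-08), and its direction was opposite in the 2 lines. MXD3 rose more in HEL, by 0.59 (standard error 0.19, edgeR adjusted p 0.0156). PRELID1, which shares exonic bases with MXD3, differed in the same direction, by 0.40 (edgeR adjusted p 0.000251). Mean levels were 189 CPM for PRELID1 and 12.9 CPM for MXD3, and the part of PRELID1 in the MXD3 difference was not tested. MYC fell less in HEL, by 0.30 (standard error 0.067, edgeR adjusted p 0.00113). MXD1 fell more in HEL, with a difference of -0.32 (standard error 0.092, edgeR adjusted p 0.00804). The MXD3 call was lost with DESeq2 (0.59), without K562 control 1 (0.54), without HEL control 2 (0.45) and without HEL KD 1 (0.53), and the MXD1 call without K562 control 1 (-0.26). The 5 others were not called: the difference was 0.04 for MAX (95% interval -0.14 to 0.22), 0.09 for MXD4 (-0.32 to 0.50), -0.27 for MNT (-0.52 to -0.03), -0.05 for MGA (-0.22 to 0.12) and 0.15 for MLX (-0.02 to 0.31). MNT passed without DOT1L KO 2 of K562 (-0.33) and with a minimum mean of 5 CPM (-0.29). Without K562 control 1, 2 members passed, where 5360 of 15430 genes did. The targeted gene itself fell further in HEL: the DOT1L difference was -1.10 (standard error 0.093, edgeR adjusted p 5.10e-09).

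The remaining MYC and MLX genes were scarce except MLXIP. MYCL, a MYC paralog, had means of 7.85 CPM in the K562 control, 13.0 CPM in the DOT1L KO and 5.48 CPM in the ENL KO. Its log2 fold changes were 0.72 (edgeR adjusted p 0.000171) and -0.51 (edgeR adjusted p 0.00646), the latter lost without control 1 (-0.44). In HEL it went from 3.27 to 4.69 CPM, a log2 fold change of 0.53 (edgeR adjusted p 0.0438) that was lost without HEL control 1 (0.63), without HEL control 2 (0.42), without KD 1 (0.20), without a filter on low counts (0.52) and with DESeq2 (0.51). MYCN, a further paralog, was tested in HEL but not in the K562 fit. It had 1.43 CPM in the HEL control and 0.442 CPM in the KD, a log2 fold change of -1.67 (edgeR adjusted p 0.00183) that was lost without HEL control 1 (-1.31) and with DESeq2 (-1.71). MLXIP, which encodes MondoA, had 360 CPM in the K562 control and was not called in either knockout (0.09 and 0.12), but rose by 0.24 in HEL (standard error 0.040, edgeR adjusted p 1.58e-06). MLXIPL, which encodes ChREBP, fell from 11.7 CPM in the K562 control to 5.96 CPM in the DOT1L KO (-0.97, standard error 0.15, edgeR adjusted p 0.000103) and 3.28 CPM in the ENL KO (-1.81, standard error 0.16, edgeR adjusted p 1.25e-06).

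Genes known to be activated by MYC in ribosome production did not follow it in a common direction. Of 30 such genes, 5 were higher and 11 lower in the DOT1L KO (median log2 fold change -0.11), 8 higher and 2 lower in the ENL KO (0.03), and 14 higher and 5 lower in HEL (0.12), where all genes had medians of 0.01, 0.00 and 0.01. Over all genes, the shares higher and lower were 26.9% and 24.2%, 18.8% and 22.2%, and 27.0% and 28.0% in that order. The counts of this list moved with the libraries and settings used. Without control 1, 6 were lower in the DOT1L KO and 4 higher in the ENL KO, and without control 2 these counts were 8 and 3, with 3 higher in the DOT1L KO. Without ENL KO 1 or ENL KO 2, 4 were higher in the ENL KO. With upper-quartile scaling 4 were higher in the ENL KO and 18 in HEL, and with the replicate number as a block 13 were higher in the ENL KO. NOLC1, a nucleolar phosphoprotein, fell in all 3 experiments, from 461 to 354 CPM in the DOT1L KO (-0.38, edgeR adjusted p 2.00e-05), to 389 CPM in the ENL KO (-0.25, edgeR adjusted p 0.00114), and from 263 to 171 CPM in HEL (-0.62, edgeR adjusted p 1.54e-20). WDR12, a factor of large-subunit assembly, fell by 0.37 in the DOT1L KO (edgeR adjusted p 0.000121), and POLR1B, a subunit of RNA polymerase I, fell by 0.29 in the ENL KO (edgeR adjusted p 0.00203). UTP20, a small-subunit factor, rose by 0.40 in the ENL KO (edgeR adjusted p 0.000499) and by 0.49 in HEL (edgeR adjusted p 6.50e-08). Further increases were those of PPAN (0.52) and UBTF (0.40), an RNA polymerase I factor, in the DOT1L KO, RRP12 (0.37) in the ENL KO, and MRTO4 (0.59) in HEL, while DKC1, the pseudouridine synthase dyskerin, fell by 0.38 in HEL.

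The listed promoters of 10 of 24 such genes held the E-box, 41.7%, against the 8.77% of all genes and the 13.0% of those with a mean of 20 counts in both lines given above. Shown are 30 bases around the motif of UTP20 (chr12:101280083-101280112, plus strand) and MRTO4 (chr1:19251807-19251836, plus strand), which rose in HEL while MYC fell, and of the growth genes SRM (chr1:11060200-11060229, minus strand) and HSPD1 (chr2:197500345-197500374, minus strand), which fell there. The window of HSPD1, read on the plus strand, is also that of HSPE1, a gene of the same list. HSPE1 had 48.8 and 50.5 CPM in the HEL controls and 55.0 and 61.3 CPM in the KD. Capitals mark the motif.
UTP20: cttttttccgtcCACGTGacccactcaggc
MRTO4: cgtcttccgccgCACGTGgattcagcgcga
SRM: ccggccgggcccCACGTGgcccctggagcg
HSPD1: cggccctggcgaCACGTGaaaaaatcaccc

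Growth and metabolism targets of MYC were also split. Of 27 tested, 5 were higher and 10 lower in the DOT1L KO (median -0.08), 3 higher and 8 lower in the ENL KO (0.05), and 9 higher and 10 lower in HEL (-0.03). In the same order, the shares higher and lower over all genes were 26.9% and 24.2%, 18.8% and 22.2%, and 27.0% and 28.0%. Without control 1, 3 of the list were higher in the DOT1L KO. Without control 1, control 2 or ENL KO 2, 5 were lower in the ENL KO, and without KD 2, 5 were higher in HEL. The listed promoters of 14 of 24 of these genes held the E-box. TERT, the catalytic subunit of telomerase, fell from 14.6 CPM to 6.88 CPM in the DOT1L KO (-1.10, edgeR adjusted p 2.09e-05) and 4.66 CPM in the ENL KO (-1.64, edgeR adjusted p 1.47e-06). PRPS2, an enzyme of nucleotide synthesis, fell by 1.03 in the DOT1L KO (edgeR adjusted p 4.01e-08), and CCND2, a G1 cyclin, by 1.00 in the ENL KO (edgeR adjusted p 1.97e-08). E2F1, which drives entry into S phase, rose in all 3, from 39.6 to 78.9 CPM in the DOT1L KO (0.99, edgeR adjusted p 3.69e-06), to 56.2 CPM in the ENL KO (0.51, edgeR adjusted p 0.00177), and from 50.8 to 63.1 CPM in HEL (0.31, edgeR adjusted p 1.32e-05). In HEL the lowest values were those of SRM, the spermidine synthase (-0.91, edgeR adjusted p 2.30e-19), and HSPD1, a mitochondrial chaperonin (-0.62, edgeR adjusted p 2.82e-24). TFRC, the transferrin receptor, which is also an erythroid marker here, rose by 0.41 in HEL (edgeR adjusted p 6.65e-19). In K562, every knockout library had less TFRC than both controls, as given above. CDK4 rose by 0.28 in the DOT1L KO and MCM5, a replication helicase subunit, by 0.37 in the ENL KO.

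Genes known to be repressed by MYC were 3 higher and 4 lower of 11 tested in the DOT1L KO, 1 higher and 5 lower in the ENL KO, and 4 higher and 1 lower of 9 tested in HEL. The medians were 0.08, -0.02 and 0.05, and without control 1 the lower count in the ENL KO was 3. Of all genes, 51.1%, 41.0% and 55.0% were called in the DOT1L KO, ENL KO and HEL KD. NDRG1, a stress-induced growth regulator, differed most between experiments: it fell from 15.1 to 8.34 CPM in the DOT1L KO (-0.85, edgeR adjusted p 2.03e-05) and to 1.24 CPM in the ENL KO (-3.59, edgeR adjusted p 5.23e-10), and rose from 51.4 to 130.1 CPM in HEL (1.34, edgeR adjusted p 1.11e-28). BTG2, an antiproliferative gene, rose by 1.03 in the DOT1L KO (edgeR adjusted p 2.13e-08) and by 1.38 in HEL (edgeR adjusted p 2.61e-33). NDRG2 rose in both knockouts, by 0.73 (DOT1L) and 0.43 (ENL), and GADD45A fell by 0.38 in the DOT1L KO. BTG1 fell by 0.32 in the ENL KO, a call lost without control 1 (-0.28), and by 0.28 in HEL.

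**Figure D4:**
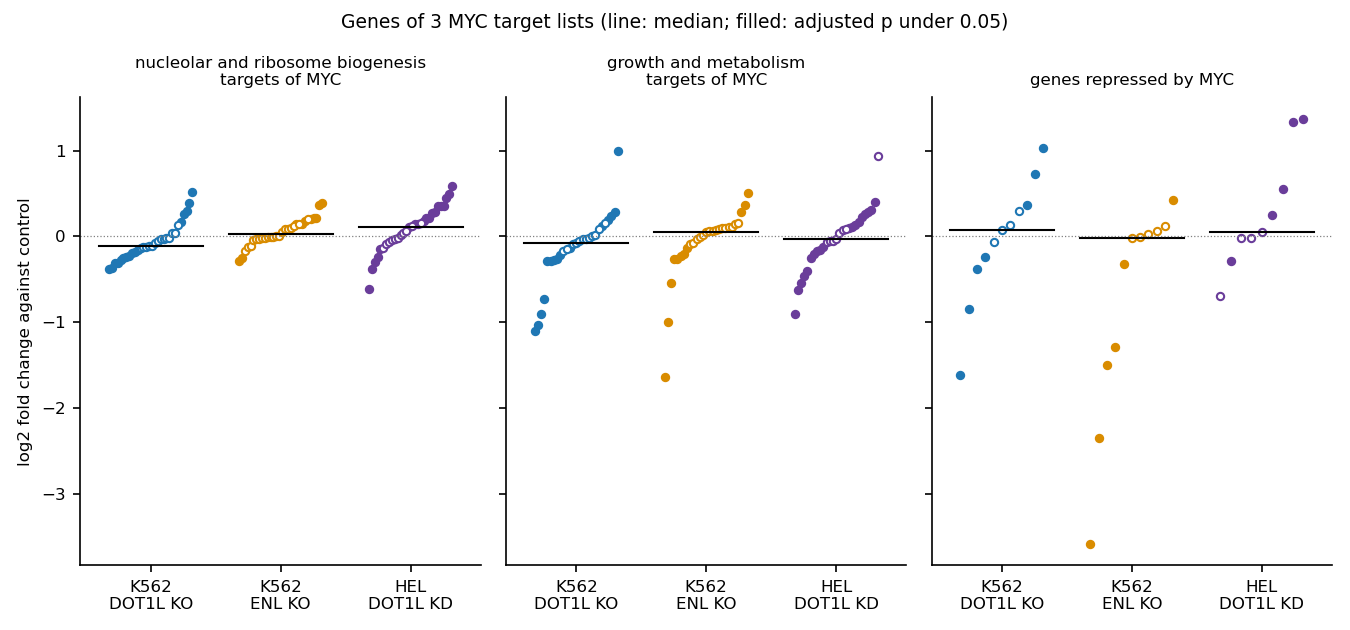
Log2 fold change against control (vertical axis) of every tested gene of 3 lists of MYC targets in the K562 DOT1L KO, the K562 ENL KO and the HEL DOT1L KD, ordered by value within each column, with filled points for an adjusted p under 0.05 and lines for medians. Medians lie between -0.11 and 0.12 in all 9 columns, and the lowest point is NDRG1 in the ENL KO at -3.59.

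Partners and regulators of MYC protein were set beside all genes. Of all genes tested, 51.1%, 41.0% and 55.0% were called in the DOT1L KO, ENL KO and HEL KD. Of 16 MYC cofactors, 1 was higher and 4 lower in the DOT1L KO, 1 higher and 2 lower in the ENL KO, and 7 of 15 tested were higher in HEL, where the count ranged from 3 to 11 over the alternatives. Without control 1, control 2 or DOT1L KO 2, 2 were lower in the DOT1L KO, and without either control 1 was lower in the ENL KO. ACTL6A, a chromatin remodeller subunit, rose by 0.44 in the ENL KO and HCFC1, a docking partner of MYC, by 0.45 in HEL. TRRAP, the scaffold that MYC uses to bring in acetyltransferases, fell by 0.36 in the ENL KO, a call lost without control 2 (-0.30). KAT2A fell by 0.25 in the DOT1L KO, lost without control 1 (-0.23), and rose by 0.23 in HEL. RUVBL2 (-0.39), a helicase, and CREBBP (0.22), an acetyltransferase, in the DOT1L KO lost their calls without control 1 (-0.27 and 0.18). In the ENL KO, KAT2A (-0.19) lost its call without control 1 (-0.16), control 2 (-0.21) or ENL KO 2 (-0.15).

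Of 16 genes that modify or degrade MYC protein, 4 were higher and 9 lower in the DOT1L KO, 4 higher and 5 lower in the ENL KO, and 7 higher and 4 lower in HEL. Among all genes the called shares were 51.1%, 41.0% and 55.0% in that order. Without control 1, 2 of the list were higher in the DOT1L KO, and without KD 1, 4 were higher and 2 lower in HEL. SKP2, a ubiquitin ligase subunit that acts on MYC, fell by 0.57 in the DOT1L KO (edgeR adjusted p 7.15e-05) and by 0.79 in the ENL KO (edgeR adjusted p 6.29e-06). PIM1, a kinase that stabilises MYC, fell from 795 to 523 CPM in the ENL KO (-0.61, edgeR adjusted p 1.73e-06) and from 1822 to 860.3 CPM in HEL (-1.08, edgeR adjusted p 1.73e-36), whereas the related PIM2 rose in both knockouts, by 1.02 and 0.54. PPP2R5A, a phosphatase subunit that destabilises MYC, fell by 0.68 in the DOT1L KO and FBXO28, a ubiquitin ligase subunit, rose by 0.69. CIP2A, an inhibitor of that phosphatase, rose by 0.40 in the ENL KO. In HEL, STUB1, a ubiquitin ligase, rose by 0.33, and USP37, a deubiquitinase, fell by 0.18. The STUB1 and USP37 calls were lost with DESeq2 (0.31 and -0.19), and that of USP37 also with upper-quartile scaling (-0.11).

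The SIN3 corepressor, which the MXD proteins and MNT recruit, had 16 listed genes tested: 3 higher and 2 lower after loss of DOT1L, 3 higher and 3 lower after loss of ENL, and 2 higher and 4 lower in HEL. The called shares of all genes were 51.1%, 41.0% and 55.0% in that order. Without control 1, 1 of the list was higher in the DOT1L KO, and without control 2, 1 was higher in the ENL KO. In the DOT1L KO, ARID4B rose by 0.38, RBBP7 fell by 0.38, ARID4A fell by 0.29 and SAP30L rose by 0.27. The ARID4A call was lost without control 2 (-0.25) and the SAP30L call with DESeq2 (0.28) and on leaving out any single library of that comparison (0.27 to 0.28). ING2 (-0.72) and SAP30 (-0.51) fell and SAP130 (0.44) and BRMS1 (0.34) rose in the ENL KO, where the SAP30 call was lost without control 1 (-0.34) and the BRMS1 call without control 2 (0.29). SAP30 also fell in HEL (-0.47, edgeR adjusted p 1.05e-11), as did ARID4A (-0.33), while HDAC1 rose by 0.32 and SIN3A by 0.17.

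The Polycomb partners of MGA numbered 11, with 4 higher and 2 lower after loss of DOT1L, 1 higher and 1 lower after loss of ENL, and 3 higher and 3 lower of 10 tested in HEL. For all genes the called shares were 51.1%, 41.0% and 55.0% in that order. Without control 1, control 2, DOT1L KO 1 or DOT1L KO 2, 2 of the list were higher in the DOT1L KO. E2F6, the repressor that binds DNA in this complex, rose by 0.32 in the DOT1L KO and PCGF6, the subunit that defines the complex, fell by 0.40. YAF2 fell in the DOT1L KO (-0.49) and in HEL (-0.51), where CBX1 fell by 0.50 and TFDP1 rose by 0.23. L3MBTL2 rose by 0.22, 0.23 and 0.58 in the 3 experiments. Its call was lost without control 1 in both knockouts (0.16 and 0.18), without DOT1L KO 2 (0.18), without a filter on low counts in the DOT1L KO (0.20), without ENL KO 2 (0.22) and in HEL with DESeq2 (0.57). RYBP fell by 0.21 in the ENL KO, lost without control 1 (-0.27), control 2 (-0.16), ENL KO 1 (-0.18) or ENL KO 2 (-0.21).

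A list of 6 genes known to be bound by MLX with MondoA or ChREBP was set beside the network, where 51.1%, 41.0% and 55.0% of all genes were called in the DOT1L KO, ENL KO and HEL KD. In K562 all 6 were tested: 3 rose and 3 fell in the DOT1L KO, and 3 rose and 1 fell in the ENL KO. In HEL 4 were tested, of which 3 rose and 1 fell. ARRDC4, an arrestin of glucose uptake, rose in all 3 experiments, by 0.72 (edgeR adjusted p 1.18e-05), 0.60 (edgeR adjusted p 0.000104) and, in HEL, 0.36 (edgeR adjusted p 4.32e-11). TXNIP, the thioredoxin-binding relative of ARRDC4, rose by 0.21, 0.24 and 0.50. The TXNIP call was lost without control 1 in both knockouts (0.15 and 0.19), and in the DOT1L KO also without KO 2 (0.21) or KO 3 (0.16). PKLR, the pyruvate kinase of liver and red cells, rose from 3.02 to 8.91 CPM in the DOT1L KO (1.56, edgeR adjusted p 1.06e-06) and to 10.9 CPM in the ENL KO (1.85, edgeR adjusted p 3.19e-07). FASN, the fatty acid synthase, fell by 0.63 in the DOT1L KO (edgeR adjusted p 4.53e-07), had a value of -0.09 in the ENL KO (edgeR adjusted p 0.238), and fell by 0.10 in HEL, a call lost without HEL control 1 (-0.05) or KD 2 (-0.07), without a filter on low counts (-0.11) and with upper-quartile scaling (-0.03). TKT, the transketolase, fell by 0.60 and 0.24 in the knockouts and rose by 0.15 in HEL. ACACA, which makes malonyl-CoA, fell by 0.43 in the DOT1L KO, lost without control 1 (-0.37), and had a value of -0.24 in the ENL KO (edgeR adjusted p 0.101).

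Other factors of the same protein class outside the network showed 1 higher and 2 lower of 8 tested after loss of DOT1L, 1 higher and 1 lower after loss of ENL, and 5 higher and 2 lower of 9 in HEL. All genes had called shares of 51.1%, 41.0% and 55.0% in that order. MITF fell in the DOT1L KO (-0.48, edgeR adjusted p 0.000908) and from 18.2 to 4.75 CPM in HEL (-1.93, edgeR adjusted p 5.70e-17). TFEB, a regulator of lysosomal genes, rose by 0.39 in the DOT1L KO, lost without control 1 (0.37), and fell by 1.24 in the ENL KO (edgeR adjusted p 1.97e-06). USF1 (0.33) and USF2 (0.46), which bind the same E-box, rose in HEL, and TFEC fell there by 0.38. SREBF2 fell by 0.21 in the DOT1L KO. SREBF1 rose by 0.20 in the ENL KO, a call lost without control 1 (0.09), without ENL KO 2 (0.18) and with upper-quartile scaling (0.17).

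Genes whose pattern was most like that of a member were found by the correlation of log2(CPM + 1), taken relative to the control mean of each line, over the 12 distinct libraries and among 8988 genes. Libraries of a group share their treatment, so these values describe likeness only and carry no p. For MYC the 3 highest were ABCA3 (r = 0.988), MAGI1 (0.987) and CTSH (0.984), whose changes on the log2 scale were -0.43, -0.80 and -0.92 after loss of DOT1L, -0.52, -1.24 and -1.33 after loss of ENL and -0.17, -0.39 and -0.31 in HEL. The gene most like MXI1 was PGK1, an enzyme of glycolysis (r = 0.987), at -0.62, 0.10 and 0.60 in that order. MXD4 was most like TMEM173 (0.976), MGA like CHD2 (0.975), MXD3 like TRAPPC2L (0.982), MXD1 like ADAMTS3 (0.980), MLX like ZNF28 (0.988), MNT like FAM234A (0.956) and MAX like CNKSR3 (0.937).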

How the data were processed

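Messenger RNA counts of 13 samples (12 distinct libraries) were used, and 61 of the 74 samples of the series were not analysed here. The authors deposited raw counts per gene, as fragment counts for K562 and read counts for HEL, with exon positions and lengths, per the file headers. The submitters' processing notes name fastp 0.13.1, HISAT2 2.1.0, Bowtie2 2.3.4.1, featureCounts 1.6.1 and deepTools, and the builds hg38 and hg19, without a role for each. Whether the counting used strand is not given in the sources used here. Genes were tested in R 4.3.3 with edgeR 4.0.16 (quasi-likelihood test, TMM scaling, filterByExpr with minimum counts of 10 and 15), with Benjamini-Hochberg adjustment over all genes tested and a threshold of 0.05. The K562 groups shared 1 fit, HEL had its own, and the lines were compared in a joint fit. Intervals are at 95%. TPM values were computed from counts and exonic lengths. The steps were tested on simulated data. Alternatives were DESeq2 1.42.0, other scalings and filters, a replicate block, and leaving out each library. RefSeq matched 26353 symbols (93.7%). The members, lists and tests were chosen with earlier results of these data known. Genes named from a list were up to 2 with the highest and 2 with the lowest change among those called, at 5 CPM or more and without overlap between groups, or every gene tested of lists of 6 or fewer. Of 17 SIN3 genes, 16 were matched by symbol. A gene that this rule names is not reported here.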

Additional observations from a re-analysis of the deposited data

Results flagged for a closer look

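For 4 members the response to DOT1L depletion differed between HEL and K562 by the edgeR interaction test. The difference, HEL minus K562, was 0.30 for MYC (edgeR adjusted p 0.00113), which was lower in 2 of 2 KD and 3 of 3 KO libraries than in every control of the line. It was -0.32 for MXD1 (edgeR adjusted p 0.00804), 0.59 for MXD3 (edgeR adjusted p 0.0156) and 1.06 for MXI1 (edgeR adjusted p 3.42e-08). PRELID1, which shares exonic bases with MXD3, had a difference of 0.40 (edgeR adjusted p 0.000251), and its part in the MXD3 value was not tested. MXI1 was lower than both controls in 3 of 3 K562 KO libraries and higher than both in 2 of 2 HEL KD libraries. Line, kind of depletion, its depth, medium and the unit counted cannot be told apart in these differences.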

How the results depend on the processing

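A minimum change of 0.5 on the log2 scale left 1 member called in the DOT1L KO, 1 in the ENL KO, 2 between the knockouts, 3 in HEL and 2 in the interaction. Leaving out 1 library gave 3 to 5 called members in the DOT1L KO and 4 to 7 in the ENL KO, against 6 and 7. In HEL it gave 4 to 7 called members and in the interaction 2 to 5, against 7 and 4. Calls over all genes were then 5664 to 6809 in the DOT1L KO and 4094 to 5658 in the ENL KO, against 7305 and 5863. In HEL they were 5884 to 6207 and in the interaction 4887 to 6473, against 6951 and 5980. The share of MYC among the members that pair with MAX was also taken in other ways. In the order K562 control, DOT1L KO, ENL KO, HEL control and KD, it was 64.8%, 56.5%, 57.7%, 57.0% and 53.7% from CPM without length. Without MGA it was 76.0%, 67.7%, 68.0%, 73.9% and 67.7%. MNT in HEL turned to 0.035 with upper-quartile scaling, and ranged from -0.089 to 0.0074 on leaving out 1 library. In the interaction, where none of these was called, such ranges were -0.035 to 0.12 for MAX (also -0.0084), -0.13 to 0.29 for MXD4 (also -0.075) and -0.12 to 0.012 for MGA. The cause of these changes was not tested. Of the other member values under alternatives, 658 kept direction and side of the threshold, 68 were no longer called and 14 became called.

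Over all genes, the minimum change left 4087 of 7305 calls in the DOT1L KO, 2999 of 5863 in the ENL KO, 4689 of 8606 between the knockouts, 2454 of 6951 in HEL and 3904 of 5980 in the interaction, and DESeq2 called 4356 in HEL. Upper-quartile scaling moved the share of higher calls in HEL from 49.1% to 61.4%. With the replicate number as a block, 7 members were called in the DOT1L KO (MGA added, -0.12, edgeR adjusted p 0.0483), 7 in the ENL KO, 6 between the knockouts (MXD1 added), 7 in HEL, 9 between lines and 4 in the interaction. The block gave 8340 calls over all genes after loss of DOT1L and 7021 after loss of ENL. The deviations of same-numbered libraries correlated at 0.579, 0.0782 and 0.278 between the knockouts, 0.389 and 0.264 between control and DOT1L KO, 0.398 and 0.101 between control and ENL KO, and -0.0265 in HEL. With 1 K562 pair under 0.1 the numbers were not taken as a pairing, and not every library correlated best with its own number (DOT1L KO 2 with ENL KO 3, 0.297). The same-numbered K562 pairs were all positive, however. With 2 libraries in a group the deviations mirror each other, so control 1 and control 2 give the same values with opposite sign. With 2 or 3 libraries a group, small changes such as those of MAX and MNT are near the limit of what these data separate.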
